A study of Mus musculus with 11 samples.

Results

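Among mouse embryonic stem (ES) cells in the library called JupLow here, 259 of 1200 cells carried 3 or more UMIs (unique molecular identifiers, each standing for 1 captured transcript) summed over Tagln, Acta2 and Krt18. These cells are called contractile and keratin-positive, or positive, here. They were compared with the 532 cells of the same library that carried none of the 3 transcripts, called negative. The other 409 cells held 1 or 2 such UMIs and entered neither class. Because the same counts chose the cells, the differences between the classes of this library are a description and carry no test.

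Tagln encodes transgelin, a protein that binds and bundles actin filaments, and Acta2 encodes smooth muscle alpha-actin. Both belong to the contractile programme of smooth muscle cells and myofibroblasts, which serum response factor (SRF) and its cofactors switch on when actin polymerises. Krt18 encodes keratin 18, which pairs with keratin 8 to form the intermediate filaments of simple epithelia, including the earliest epithelia of the embryo. ES cells kept in serum and LIF (leukaemia inhibitory factor) are heterogeneous and hold some cells that leave the naive pluripotent state. In 2i/LIF, a medium with inhibitors of MEK and GSK3, the culture is more uniform and naive.

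The single-cell part of the series has 5 libraries made with inDrop, a droplet method, and holds 1 library per condition, so no condition is replicated. The libraries called JupLow and JupHigh, with the deposited genotypes PGLOW and PGHIGH, are lines said to overexpress plakoglobin, the product of Jup and a junction protein of the catenin family, at a low and a high level from the constitutive CAG promoter, in serum/LIF on tissue-culture plastic; their parent line is not named. The other libraries come from unmodified E14 cells. One was grown in serum/LIF on plastic and is called wild type below, one in serum/LIF inside agarose microgels (the gel) and one in 2i/LIF on plastic. A bulk experiment compared 3 gel libraries with 3 plastic libraries in 2i/LIF, made from pools of cells of the Rex1GFPd2 reporter line. The gel single-cell table is held only in part, which touches each of its values below. Together the single-cell libraries gave 7079 cells with at least 1000 UMIs and at most 0.9 detected genes per UMI. Total UMIs in cells were 2878334 for JupLow, 2017950 for wild type, 236195 for the gel, 4310792 for JupHigh and 8284254 for 2i/LIF, with medians of 1731.5 to 2465 per cell. The libraries shared 0 cell barcodes. Jup stood at 37.9 counts per 1000000 UMIs (CPM; 95% exact Poisson interval 31.1 to 45.7) in JupLow, 47.8 (41.5 to 54.8) in JupHigh, 36.7 (28.8 to 46.0) in wild type, 38.1 (17.4 to 72.3) in the gel and 46.7 (42.2 to 51.6) in 2i/LIF. These intervals do not separate JupLow from its wild-type counterpart, so the name JupLow stands for the deposited label and not for a measured level of Jup. All intervals given for single cells cover counting error only.

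Positive and negative cells differed in more than their markers. In JupLow the median cell held 2440 UMIs in the positive and 2190 in the negative class. The median share of UMIs from mitochondrially encoded genes was 2.94% in positive and 7.15% in negative cells, and the upper quartile of negative cells was 26.1%. In wild type the median cell held 3366 UMIs in the positive and 2318 in the negative class. The mitochondrial shares there were 2.75% and 5.76%, with an upper quartile of 25.1% in negative cells. Each cell was thinned at random to 1000 UMIs before classes were summed, which gives all cells the same depth in the sums. The classes were set on marker counts before thinning, so deeper cells reached 3 marker UMIs more easily. That part of the depth difference stays in the choice of cells. The difference in mitochondrial share stays in the sums, and some results are given below also within cells of at most 10% mitochondrial UMIs. RNA outside cells can also give marker UMIs. In JupLow barcodes under 500 UMIs, Tagln stood at 869 CPM, Acta2 at 839 and Krt18 at 529, against 613, 552 and 299 over all JupLow cells before thinning. In positive cells after thinning they stood at 2135, 2290 and 1097 CPM. The part of free RNA in cells with few marker UMIs was not tested.

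Among positive cells the summed marker count had a median of 7 UMIs and reached 203. At the threshold, 57 cells held exactly 3 marker UMIs and 131 cells just outside it held 2. At the other end, 46 cells held 20 or more. Of the positive cells 110 held at least 1 UMI of each marker. Another 52 positive cells held Tagln and Acta2, 49 held Tagln and Krt18 and 13 held Acta2 and Krt18. Tagln alone accounted for 23 positive cells, Acta2 alone for 7 and Krt18 alone for 5. Thus 172 positive cells held both a contractile and the keratin transcript and 82 held contractile transcripts without Krt18.

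Positive cells were found in both serum/LIF plastic libraries other than JupHigh. They made up 21.6% of JupLow cells (exact binomial interval 19.3 to 24%) and 14.9% (12.4 to 17.7%) of wild-type cells, 108 of 725. In JupHigh, 8 of 2153 cells qualified, 0.372% (0.161 to 0.731%). The gel library gave 5 of 112 cells, 4.46% (1.47 to 10.1%). No cell of 2889 qualified in 2i/LIF, which allows a share of up to 0.104% when set at 3 cells and 0.128% by the exact binomial limit. After thinning of each cell to 1000 UMIs, with markers counted afterwards, the shares were 13.3%, 7.03%, 0.186%, 0.893% and 0% in the same order of libraries. The order of JupLow, wild type and JupHigh was the same before and after thinning and their intervals did not overlap. With 1 library per condition, a difference between lines or media cannot be told apart from a difference between libraries. A Krt18 UMI was found in 0.242% of 2i/LIF cells, at a median of 2465 UMIs per cell, and in 24.4% of JupLow cells, at a median of 2193.5. The 2i/LIF library held little Krt18 in all (0.845 CPM), so its share does not measure the free RNA of JupLow.

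**Figure D1:**
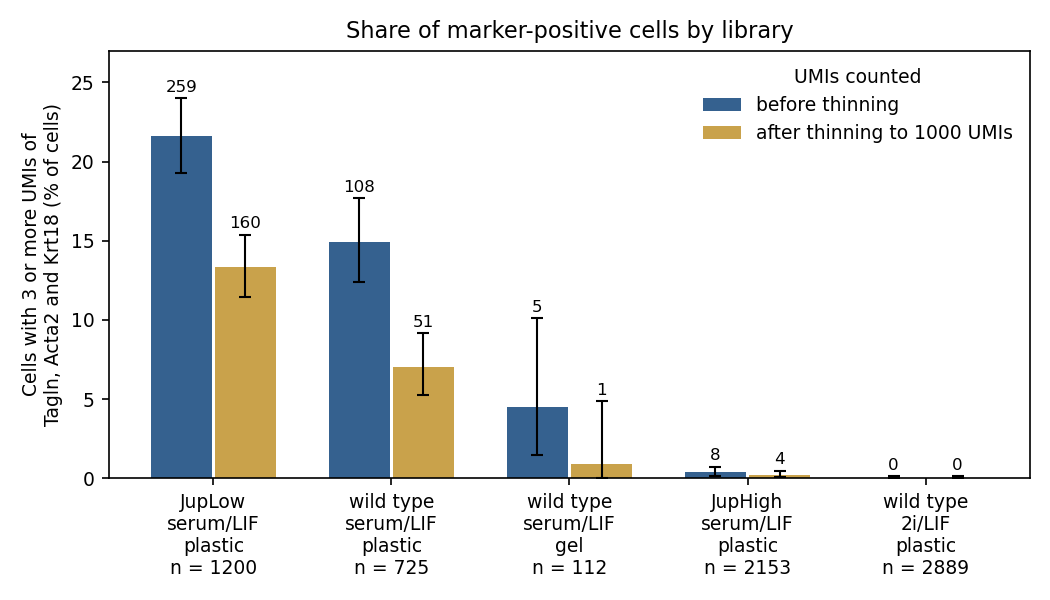
Share of cells with 3 or more summed Tagln, Acta2 and Krt18 UMIs (y axis, percent of cells) in each single-cell library (x axis, with the number of cells), before and after thinning to 1000 UMIs per cell; error bars are exact 95% binomial intervals and the numbers over the bars are cell counts. JupLow stands at 21.6% before thinning, wild type at 14.9% and JupHigh at 0.372%.

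The contractile markers stood higher in cells chosen by Krt18 alone, and Krt18 stood higher in cells chosen by Tagln and Acta2. In JupLow cells chosen by 2 or more UMIs of Tagln plus Acta2, Krt18 stood at 808 CPM (interval 712 to 914, 313 cells). It stood at 68.0 CPM (48.8 to 92.2) in the 603 cells with neither, a log2 ratio of 3.57 (3.09 to 4.08). In cells chosen by 2 or more Krt18 UMIs, Tagln stood at 2511 CPM against 249 in cells with none, a log2 ratio of 3.33 (3.09 to 3.58). Acta2 stood at 2803 against 216 CPM, a log2 ratio of 3.70 (3.45 to 3.95). The wild-type library, whose cells the rule did not use, gave log2 ratios of 3.80 (3.22 to 4.41) for Krt18, 3.46 (2.94 to 3.99) for Tagln and 3.78 (3.39 to 4.19) for Acta2. For each of these 3 genes the intervals of the libraries overlapped.

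The contractile and actin-binding genes stood higher in the positive cells as a group. Of 28 listed genes, 22 reached 20 CPM over all JupLow cells, and all 22 had ratios above 0, with a median log2 ratio of 1.78 against 0.15 over all 6465 genes at that level. Of the 20 that reached 100 CPM in either class, 17 were 2-fold or more higher and 0 were 2-fold lower. Over all genes at 100 CPM, 15.2% were 2-fold or more higher and 5.35% were 2-fold or more lower (327 and 115 of 2151). These shares belong to the contrast that chose the cells. A gene can also pass the floor of 100 CPM through 1 class alone, the one where it stands higher. Counts at this floor, here and below, are therefore a description. In wild-type cells classed by the same markers, 18 of 19 measured members had ratios above 0 (median 1.67, all genes 0.10), and 12 of 17 were 2-fold or more higher, where 14.6% of all 2297 genes were. Within cells of at most 10% mitochondrial UMIs (211 positive and 284 negative JupLow cells), the list median was 1.65, and in wild type it was 1.21.

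Acta1, the skeletal muscle alpha-actin, stood at 274 CPM in positive and 7.52 in negative JupLow cells, a log2 ratio of 5.19 (3.77 to 7.10). In wild type it stood at 92.6 CPM against 0 UMIs, 13.2-fold higher when the empty class is set to 3 UMIs over the class. The lower limit of that log2 ratio was 3.15. Cnn1, calponin, which binds actin and is a marker of smooth muscle, stood at 189 against 7.52 CPM (log2 4.65; wild type 2.37). The actin genes Acta1, Acta2, Actb and Actg1 are close paralogs, so their counts may share reads and are uncertain to that extent.

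Tropomyosins stabilise actin filaments and set how myosin reaches them. Tpm1 stood at 1683 CPM in positive and 235 in negative JupLow cells, a log2 ratio of 2.84 (2.55 to 3.14). In wild type the levels were 2037 and 238 CPM and the ratio 3.10 (2.75 to 3.45), so the intervals of the libraries overlap. A Tpm1 UMI was found in 67.6% of thinned positive and 19.9% of thinned negative JupLow cells. Tpm2 had a log2 ratio of 3.08 and Tpm4 of 2.24 in JupLow, and 3.73 and 1.79 in wild type.

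Caldesmon (Cald1), which restrains actomyosin in smooth muscle, stood at 548 against 73.3 CPM in JupLow (log2 2.90) and 546 against 62.9 in wild type (log2 3.12). Its JupLow ratio was 4.24 (3.21 to 5.48) within cells of at most 10% mitochondrial UMIs. Csrp1, a LIM protein of smooth muscle, had ratios of 3.16 and 2.81. Tagln2, a transgelin of wider expression, had 2.68 and 1.85, and 1.28 in wild-type cells of at most 10% mitochondrial UMIs. The calponin Cnn2 had 2.44 and 2.70, while Cnn3 was closer between classes at 1.07 and 0.80. Zyx, a focal adhesion protein, had ratios of 2.13 and 1.85.

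Further members had ratios under 2 in JupLow. The myosin light chain Myl6 had log2 ratios of 1.71 and 1.36, the non-muscle myosin heavy chain Myh9 1.75 and 1.38, and alpha-actinin Actn1 1.82 and 1.32. Filamin A (Flna) had 1.01 and 0.88 and Myh10 0.88 and 0.81. Actn4 had 0.30 (−0.15 to 0.74) in JupLow and −0.69 (−2.09 to 0.46) in wild type, intervals that include 0 in both. Myl12a, a regulatory myosin light chain, had 1.53 and vinculin (Vcl), a focal adhesion protein, 1.04 in JupLow. Myl12a in wild type was not analysed here, and Vcl had 4 and 5 thinned UMIs there.

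The general actin cytoskeleton shared the direction at smaller size. All 8 measured genes of 9 listed had ratios above 0 in both libraries, with medians of 0.92 and 0.91. In JupLow 4 of 8 were 2-fold or more higher, against 15.2% of all genes at 100 CPM, and in wild type 3 of 8, against 14.6%. Beta-actin (Actb) stood at 5942 against 2425 CPM in JupLow, a log2 ratio of 1.29 (1.19 to 1.40), with 1.32 in wild type. Tmsb4x, thymosin beta 4, which binds actin monomers, stood at 3019 against 789 CPM (log2 1.94; wild type 2.32). Actg1 (1.23 and 1.39) and Tmsb10 (1.17 and 0.96) followed, while Cfl1, Pfn1, Ezr and Arpc2 had ratios between 0.37 and 0.68 in JupLow.

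Promoter sequences are shown for a contractile gene of the highest ranks (Acta1), a tropomyosin gene (Tpm1) and the keratin marker (Krt18), since genes of both kinds stood high in the same class. RefSeq sequences of GRCm38.p6 held promoters for 80 of the 114 named genes, among them 2 of the 3 markers (Acta2 and Krt18). The window is the 250 bases before the RefSeq start, and any part from the first annotated GENCODE exon of the gene onward is left out of the print, because the starts of the annotations differ. That removed 0 bases of Acta1, 193 of Tpm1 and 36 of Krt18, and 217 of Acta2, which is not shown. The sequences, 5′ to 3′ on the strand of the gene, are Acta1 at chr8:123894776-123895025 (minus strand), Tpm1 at chr9:67049407-67049463 (minus) and Krt18 at chr15:102027966-102028179 (plus). Capitals mark a CArG box, the motif bound by SRF, either complete or with 1 of its 10 letters off, and CATTCC on either strand, the motif bound by TEAD factors.

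Acta1: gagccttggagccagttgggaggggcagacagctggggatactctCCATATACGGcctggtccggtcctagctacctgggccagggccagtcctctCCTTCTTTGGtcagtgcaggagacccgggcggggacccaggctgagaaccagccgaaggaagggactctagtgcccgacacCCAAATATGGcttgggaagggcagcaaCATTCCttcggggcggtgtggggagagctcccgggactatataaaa

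Tpm1: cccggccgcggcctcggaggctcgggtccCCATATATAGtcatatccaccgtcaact

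Krt18: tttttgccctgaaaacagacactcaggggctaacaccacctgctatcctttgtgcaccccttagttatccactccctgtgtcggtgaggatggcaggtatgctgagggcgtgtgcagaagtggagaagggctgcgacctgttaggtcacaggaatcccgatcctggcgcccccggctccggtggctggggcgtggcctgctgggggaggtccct

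Both strands of the whole windows were searched, and positions count back from the RefSeq start. Acta1 held 1 complete CArG box, 73 to 64 bases before the start, and 2 with 1 letter off. Acta2 and Tpm1 each held 2 with 1 letter off, at 84 to 75 and 34 to 25 bases before the start in Acta2 and at 221 to 212 and 80 to 71 in Tpm1. All 3 held CATTCC once, and none of these matches overlap. The Acta2 matches all lie in the part left out of the print, from its first annotated exon onward. So do the Tpm1 match at 80 to 71 and the Tpm1 CATTCC at 56 to 51. The letters searched for were not found in this window of Krt18. Over all 32851 promoters of this length, 1.467% held a complete CArG box, 17.46% held one with 1 letter off and 12.64% held CATTCC. Among 21 promoters of markers and named contractile genes the counts were 3, 6 and 9. These matches are letters in a window, not measured binding.

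Keratins stood higher with Krt18. Keratin 8 (Krt8), the partner of keratin 18, lies beside it on chromosome 15 (GRCm38 101996698 to 102004482, with Krt18 at 102028180 to 102032027). It stood at 1595 CPM in positive and 102 in negative JupLow cells, a log2 ratio of 3.97 (3.56 to 4.41), and at 1694 against 145 in wild type, 3.55 (3.13 to 3.99). A Krt8 UMI was found in 57.5% of thinned positive and 8.08% of thinned negative JupLow cells. In JupLow cells with contractile transcripts and no Krt18, Krt8 stood at 500 CPM (359 to 678). That was above the 102 (76.3 to 132) of negative cells and below the 2145 (1932 to 2376) of cells with both kinds. In JupLow barcodes under 500 UMIs Krt8 stood at 520 CPM, and the part of free RNA in the 500 CPM was not tested.

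Krt19, a further keratin of simple epithelia, stood at 104 CPM in positive JupLow cells and at 0 UMIs in negative ones. With 3 UMIs set over the empty class it was 18.5-fold higher, and the lower limit of its log2 ratio was 3.81. In wild type it stood at 74.1 against 4.66 CPM, a log2 ratio of 3.99 (1.66 to 7.26). Of 10 listed keratins 2 (Krt8 and Krt19) reached 20 CPM over all JupLow cells. Nlrp4e, a gene on chromosome 7 (GRCm38 23301192 to 23362277) with a log2 ratio of 3.78 in JupLow and 3.68 in wild type, spans the keratin 8 pseudogene Krt8-ps in the annotation. Its counts may therefore hold reads of keratin 8 sequence, and its level is uncertain.

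Epithelial junction genes were uneven. All 12 measured of 16 listed had ratios above 0 in JupLow (median 1.10, against 0.15 over all genes), and 4 of 8 at 100 CPM were 2-fold or more higher, against 15.2% of all genes at that level. In wild type 10 of 12 were above 0 (median 1.03, against 0.10 over all genes) and 3 of 7 were 2-fold or more higher, against 14.6%. Desmoplakin (Dsp), which anchors keratin filaments to desmosomes, stood at 212 against 24.4 CPM in JupLow (log2 3.12, 2.23 to 4.12) and had 1.86 in wild type. Perp, a desmosomal membrane protein, had 2.72 and 1.54, claudin 6 (Cldn6) 1.47 and 1.52 and plakophilin 2 (Pkp2) 1.16 and 1.06. In JupLow, Dsp, Perp, Cldn6 and Pkp2, the 4 counted above, reached 100 CPM only in positive cells. The adhesion molecules of undifferentiated ES cells were level. Epcam stood at 413 and 357 CPM in positive and negative JupLow cells (log2 0.21, −0.15 to 0.56) and E-cadherin (Cdh1) at 405 and 378 (0.10, −0.25 to 0.45), with −0.29 for Cdh1 in wild type. Jup itself stood at 38.6 and 28.2 CPM in JupLow, from 10 and 15 UMIs (log2 0.45, −0.86 to 1.70). In wild type it stood at 92.6 and 21 CPM, from 10 and 9 UMIs (log2 2.14, 0.69 to 3.62), and the intervals of the libraries overlap. Over the processing alternatives this wild-type ratio ran from 0.20 to 2.79.

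Annexins and S100 proteins, mostly calcium-dependent proteins of the membrane and cortex, had the largest median of the lists with 5 or more measured members. All 8 measured members of 10 were 2-fold or more higher in both libraries. Over all genes at 100 CPM, 15.2% were so in JupLow and 14.6% in wild type. Of the list, only S100a6 and S100a10 reached that floor in negative cells, in both libraries. The list medians were 2.32 in JupLow and 2.80 in wild type, against 0.15 and 0.10 over all genes. In cells of at most 10% mitochondrial UMIs the list medians were 2.17 and 2.63. Annexin A1 (Anxa1) headed the whole JupLow ranking at 151 against 3.76 CPM, a log2 ratio of 5.32 (3.37 to 8.42) from 39 and 2 UMIs, and had 2.76 in wild type. Annexin A2 (Anxa2) stood at 425 against 43.2 CPM (3.30; wild type 2.85). Anxa3 had 3.04, Anxa5 2.47 and Anxa6 2.04 in JupLow. S100a6 stood at 1224 against 301 CPM (2.02; wild type 2.39), and S100a10 and S100a11, whose products bind annexins, had 1.87 and 2.17.

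Matrix and mesenchymal genes split. Galectin 1 (Lgals1) stood at 950 against 109 CPM in JupLow (log2 3.12, 2.71 to 3.56) and 1056 against 142 in wild type (2.89). Vimentin (Vim), the intermediate filament of mesenchyme, stood at 417 against 97.7 CPM (2.09, 1.60 to 2.60) and 972 against 138 in wild type (2.82, 2.35 to 3.31). Sparc had 1.75 and 1.12 and integrin beta 1 (Itgb1) 1.16 and 1.26, whereas fibronectin (Fn1) was near level at 0.32 (−0.02 to 0.66). Col4a2, a basement membrane collagen chain, stood at 124 against 11.3 CPM in JupLow (3.45, 2.18 to 5.0) but at 157 against 152 in wild type (0.06, −0.81 to 0.84). Its partner chain Col4a1, whose annotated span overlaps that of Col4a2, likewise had 2.15 (1.33 to 3.02) and 0.46 (−0.13 to 1.02). For both chains the negative cells of wild type stood higher than those of JupLow, and the intervals of the libraries do not overlap. Spp1 was lower in JupLow positive cells, at 50.2 against 135 CPM. The list median was 1.16 in JupLow and 0.26 in wild type.

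Among SRF and YAP targets, thrombospondin 1 (Thbs1) stood at 475 against 71.4 CPM in JupLow (log2 2.73) and 213 against 42.0 in wild type (2.34). Within cells of at most 10% mitochondrial UMIs the JupLow ratio was 3.77 (2.78 to 4.94). Ccn1, an immediate target of YAP and SRF, had 2.41 (1.68 to 3.19) in JupLow and 0.54 (−0.42 to 1.42) in wild type, intervals that do not overlap. Amotl2 had 1.22 and 2.24. The list median was 1.22 and 1.85 over 7 measured genes in each library. The 12 highest genes of JupLow held further members outside the lists. Gelsolin (Gsn), which severs actin filaments, stood at 413 against 37.6 CPM (3.46; wild type 2.49). In wild-type cells of 1500 to 3000 UMIs, 21 of them positive, the ratio of Gsn was −0.21 and that of Thbs1 −0.34. Cavin1, a coat protein of caveolae, stood at 232 against 18.8 (3.62; wild type 3.42). The interferon-induced GTPase Gbp2 had 3.62 and 3.73, and Plin2, which coats lipid droplets, 3.31 and 2.29. The 13th gene was Cryab at 3.26. In wild type the 12 highest genes of JupLow all had ratios above 0, though the interval of Col4a2 (−0.81 to 0.84) included 0. Of the 9 that reached 100 CPM there, 8 were 2-fold or more higher, where 14.6% of all genes were.

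Krt8 and Tpm1 were graded with the marker count. Over JupLow cells with 0, 1, 2, 3 to 4, 5 to 9, 10 to 19 and 20 or more marker UMIs, Krt8 stood at 102, 212, 298, 432, 1312, 2542 and 3304 CPM. Tpm1 stood at 235, 414, 580, 875, 1234, 2208 and 3435 CPM over the same classes. Both levels were higher in each class than in the class before. For these genes, cells with 1 or 2 marker UMIs thus lay between the compared classes. In JupLow barcodes under 500 UMIs, Krt8 stood at 520 CPM and Tpm1 at 734. The part of free RNA in this gradient was not tested. Vimentin stood at 97.7 CPM in cells without markers, 89.9 at 1 UMI, 107 at 2, 114 at 3 to 4, 273 at 5 to 9, 375 at 10 to 19 and 1283 at 20 or more. The marker count of a cell grows with its depth before thinning, and the median UMIs of positive cells are given above.

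**Figure D2:**
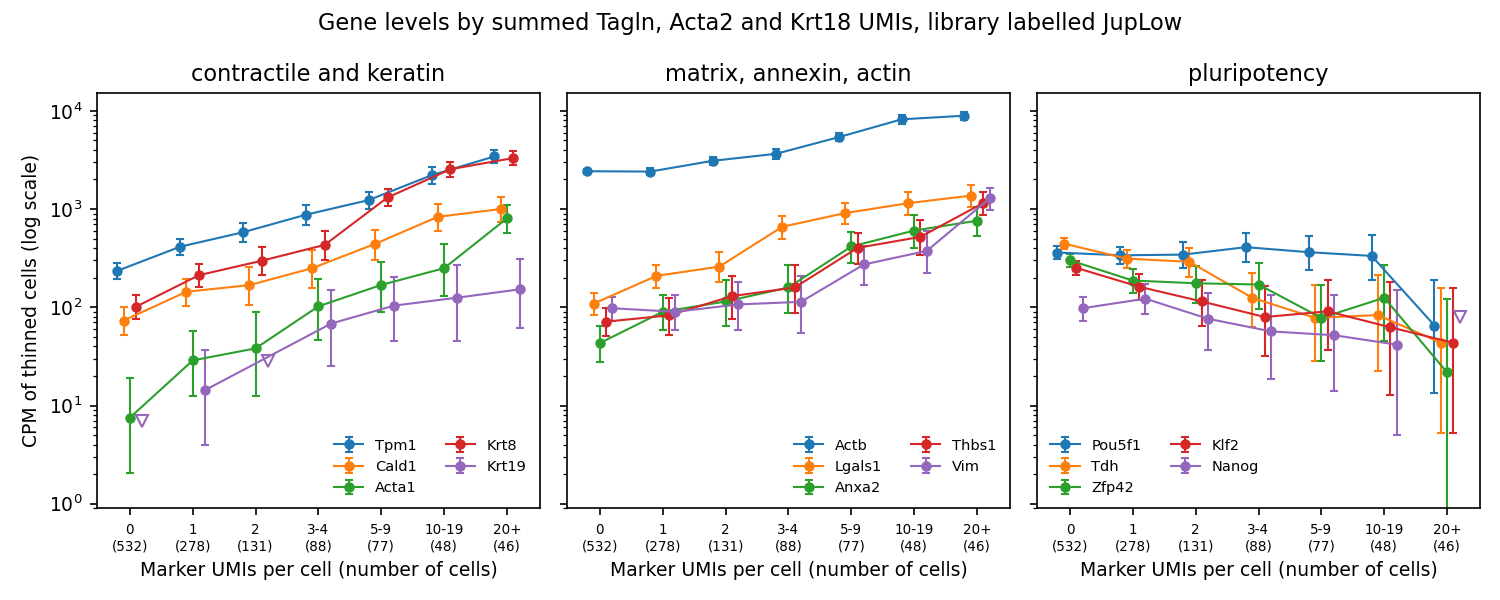
CPM after thinning (y axis, log scale) of 15 genes over JupLow cells grouped by their summed Tagln, Acta2 and Krt18 UMIs (x axis, number of cells in parentheses), with exact 95% Poisson intervals as bars. Open triangles mark the upper limit where a class held 0 UMIs. Krt8 goes from 102 to 3304 CPM, while Pou5f1 stays between 333 and 409 CPM up to 19 marker UMIs and stands at 65.2 in the last class.

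Naive pluripotency genes stood lower in the positive cells. Of 15 listed genes, 10 of 11 measured had ratios below 0 in JupLow, with a median of −1.48, and 4 of 5 at 100 CPM were 2-fold or more lower, where 5.35% of all genes were. In wild type 10 of 12 were below 0, with a median of −0.91, and 3 of 4 were 2-fold lower, where 5.31% of all genes were. Tdh, threonine dehydrogenase, an enzyme that mouse ES cells depend on, stood at 88.8 against 445 CPM in JupLow (log2 −2.33, −3.01 to −1.71) and 120 against 305 in wild type (−1.34, −2.29 to −0.52). A Tdh UMI was found in 8.11% of thinned positive and 28.4% of thinned negative JupLow cells. The transcription factor Klf2 stood at 73.4 against 252 CPM (−1.78; wild type −2.04), Zfp42 (Rex1), a classic marker of the naive state, at 108 against 301 (−1.48; wild type −1.03), and Esrrb at 19.3 against 102 (−2.39; wild type −1.43 with an interval of −3.78 to 0.25). Nanog stood at 42.5 against 97.7 CPM (−1.20, −2.29 to −0.25), with −0.78 (−2.31 to 0.46) in wild type. Tdh, Klf2 and Esrrb reached 100 CPM in JupLow only in negative cells. In JupLow cells of at most 10% mitochondrial UMIs, the list median was −1.86.

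The general pluripotency list had a median of −0.25 in JupLow and −0.26 in wild type. It was −0.58 in JupLow cells of at most 10% mitochondrial UMIs, −0.82 after thinning to 2000 UMIs and −1.40 when cells were chosen by Krt18 alone. Of 9 members at 100 CPM 0 passed 2-fold in either library, where 5.35% of all JupLow genes were lower and 15.2% higher, so the count does not set the list apart. Pou5f1 (Oct4) stood at 320 and 361 CPM (log2 −0.17, −0.56 to 0.21; −0.56, −0.97 to −0.17, in cells of at most 10% mitochondrial UMIs), Utf1 at 552 and 528 (0.06, −0.24 to 0.36) and Dppa5a at 440 and 451 (−0.04, −0.37 to 0.29). Sox2 stood at 127 against 254 CPM in JupLow (−0.99, −1.59 to −0.44) and was not analysed here in wild type. In the 46 JupLow cells with 20 or more marker UMIs, Pou5f1 stood at 65.2 CPM, and Sox2 at 21.7. The summed level of the general list was 3250 CPM at 3 to 4 marker UMIs, 2818 at 5 to 9, 1792 at 10 to 19 and 1130 at 20 or more, against 2917 in cells without markers. The summed naive list was already lower at 3 to 4 marker UMIs, at 682 against 1549 CPM. For formative and primed genes the median was −1.18 in JupLow and −0.99 in wild type. Dnmt3b, a de novo DNA methyltransferase, stood at 375 against 660 CPM (−0.82; wild type −0.99), while Pou3f1 was level (0.13 and 0.06).

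The 12 lowest genes of JupLow included Esrrb and Tdh. Among the others were Usp28 (−2.74; wild type −0.88), a deubiquitinase, Mdm4 (−2.68; −1.26), an inhibitor of p53, 1700019D03Rik (−2.50; −1.75), Cep192 (−2.16; −0.11), a centrosome protein, Rcor2 (−2.12; −0.33), a corepressor, Ptch1 (−2.11; −2.61), the Hedgehog receptor, Zfp981 (−2.06; −1.33), Adam23 (−1.94; −1.43) and Zfp979 (−1.82; −1.80). The 13th was Klf2. All 12 had ratios below 0 in wild type, but the intervals of Usp28, Mdm4, Esrrb, Cep192, Rcor2 and Adam23 included 0 there. Of the 6 that reached 100 CPM in wild type, 5 were 2-fold or more lower, where 5.31% of all genes were.

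Mitochondrially encoded transcripts stood lower in positive cells, by log2 ratios of −1.29 to −1.02 over 10 genes in JupLow and with a median of −1.40 over 8 genes in wild type. They took 135169 CPM of negative and 57969 CPM of positive JupLow cells. When cells were limited to at most 10% mitochondrial UMIs, mt-Cytb had a ratio of −0.37 (−0.50 to −0.25) instead of −1.27. In those cells Krt8 had 4.37, Tpm1 2.65, Lgals1 4.07, Tdh −2.76 and Klf2 −2.43 in JupLow. Each of these kept its direction. The higher and lower counts did depend on the scaling and on the cells kept. They were 327 and 115 (73.98% higher) for CPM, 165 and 217 (43.19%) with TMM factors, 256 and 161 (61.39%) with mitochondrial genes out of the totals and 228 and 230 (49.78%) in cells of at most 10%. In wild type they were 336 and 122 (73.36%), 151 and 265 (36.3%), 275 and 180 (60.44%) and 223 and 182 (55.06%). The median ratio over all genes was 0.15 for CPM and −0.11 with TMM factors in JupLow, and 0.10 and −0.20 in wild type. Ratios above 0 and smaller than that downward shift, such as those of Epcam, Cdh1 and Utf1 in JupLow or the mesenchyme list median in wild type, have no fixed direction.

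The G1/S list had a median of −0.43 and the G2/M list of −0.05 in JupLow, against 0.15 over all genes. Mcm6 and Mcm7, subunits of the replicative helicase, had −0.54 (−0.89 to −0.19) and −0.58 (−0.97 to −0.20), and the topoisomerase Top2a −0.50 (−0.81 to −0.20). In wild type the intervals of Mcm6 and Mcm7 included 0 and Top2a had −0.51 (−1.0 to −0.05). Cdk1, the mitotic kinase, had 0.21 (−0.17 to 0.58) in JupLow and 0.66 (0.07 to 1.22) in wild type. Among p53 targets (median 0.33 in JupLow and 0.37 in wild type), Cdkn1a, the cell cycle inhibitor p21, stood at 185 against 45.1 CPM (log2 2.04, 1.30 to 2.81) and 315 against 67.6 in wild type (2.22). Mdm2 (0.78) and Ccng1 (0.53) differed less. Immediate early and heat shock genes, which respond to stress during handling, had medians of 1.27 and 0.87. The small heat shock protein Hspb1, which also binds actin, stood at 714 against 297 CPM in JupLow and 481 against 326 in wild type. The chaperone Hsp90aa1 had 0.09 (−0.11 to 0.29) and 0.18 (−0.07 to 0.43).

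Markers of other cell types were detected in part. Of the 13 primitive endoderm markers in the table, Sox17, Foxa2, Cubn and Amn had 0 UMIs in the 259 positive JupLow cells before thinning and 9 had UMIs. Of 12 trophoblast markers 11 had UMIs, and the regulator Cdx2 had 0. Krt7 stood at 50.2 against 7.52 CPM (log2 2.74, 1.04 to 4.81). Gata3 and Hand1 each stood at 19.3 against 3.76 CPM, from 5 thinned UMIs in positive and 2 in negative cells. Tfap2c, also on that list, stood lower, at 7.72 against 41.4 CPM (−2.42, −5.55 to −0.40), and Ascl2 had 0 against 2 thinned UMIs. Of 7 mesoderm and primitive streak markers in the table T (Brachyury), Mixl1, Cdx1 and Fgf8 had 0. T, Mixl1 and Fgf8 had 0 in negative cells too. The summed mesoderm list stood at 42.5 CPM (21.2 to 76.0) in positive and 16.9 (7.74 to 32.1) in negative cells. Wnt3, like Hand1, which is on this list too, stood at 19.3 against 3.76 CPM, and Kdr at 3.86 against 7.52. Of 8 neuroectoderm markers Sox1, Pax6, Zic1 and Hes5 had 0. Nes, which encodes the intermediate filament nestin of neural progenitors, stood at 147 against 52.6 CPM (1.48, 0.74 to 2.24; wild type 2.12, 0.81 to 3.44). The other members did not stand higher: Tubb3 stood at 57.9 against 67.7 CPM (−0.22, −1.20 to 0.68), Map2 had −0.96 (−3.43 to 0.93), Ncam1 −0.28 (−3.68 to 2.33), and Pax6 0 against 4 thinned UMIs. In negative cells the markers with UMIs numbered 13 for primitive endoderm, 10 for trophoblast, 4 for mesoderm and 6 for neuroectoderm, against 9, 11, 3 and 4 in positive cells. Such counts of detected markers are not scaled for class size and do not compare levels. The negative class held 532 cells with 1230332 UMIs and the positive class 259 with 719489. Of 12 fibroblast markers 10 had UMIs in positive and 7 in negative cells, with Dcn and Pdgfrb at 0 in the positive ones, and the summed list stood at 154 CPM in positive and 39.5 in negative cells. Col1a1, the main fibroblast collagen, stood at 65.6 against 3.76 CPM from 17 and 2 thinned UMIs, which lay in 10 positive cells, with 29.4% of them in 1 cell. The smooth and striated muscle list, of whose 12 markers 11 had UMIs in positive and 10 in negative cells, stood at 394 against 86.5 CPM, and Cnn1, which is on both muscle lists, gave 189 of the 394. Actc1 (77.2 against 3.76 CPM) and Smtn (77.2 against 35.7 CPM) also stood higher. Of its rarer members, Lmod1 had 4 against 3 thinned UMIs (15.4 against 5.64 CPM) and Des 2 against 3 (7.72 against 5.64 CPM). Myocd had 4 against 0 and Tnnt2 1 against 0. Ttn had 1 against 6 thinned UMIs, Myl4 1 against 4 and Tnnt1 0 against 3. Myh11 and Myl7 each had 0 against 1. The primitive endoderm list stood at 1124 against 481 CPM, of which Sparc gave 788 and 235 and Col4a1 158 and 35.7. Apoe, on the same list, stood at 108 against 160 CPM (−0.56, −1.23 to 0.07), and Lama1 had −0.22 (−2.08 to 1.38). The trophoblast list stood at 521 against 207 CPM, led by Peg10 at 293 and 94.0. The part of any such cells in the differences above was not tested.

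Many of the JupLow differences were also measured in wild type. Of the 327 genes 2-fold or more higher in JupLow, 129 were so in wild type, which is 39.4% of the JupLow and 38.4% of the wild-type genes, and 50 of 115 lower genes were shared, 43.5% and 41.0%. Over all wild-type genes at 100 CPM, 14.6% were higher and 5.31% lower. None was 2-fold in the opposite direction. Of the 246 higher genes that reached 100 CPM in wild type, 242 had ratios above 0, and of 75 lower genes 70 had ratios below 0. Over all wild-type genes at 20 CPM, 3566 of 6629 had ratios above 0. The 246 and 75 genes met another floor, 100 CPM in the higher class, so these shares are not like for like. The classes of each library came from different cells and shared no control, but the same 3 markers chose them. In both libraries the classes also differed in mitochondrial share.

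**Figure D3:**
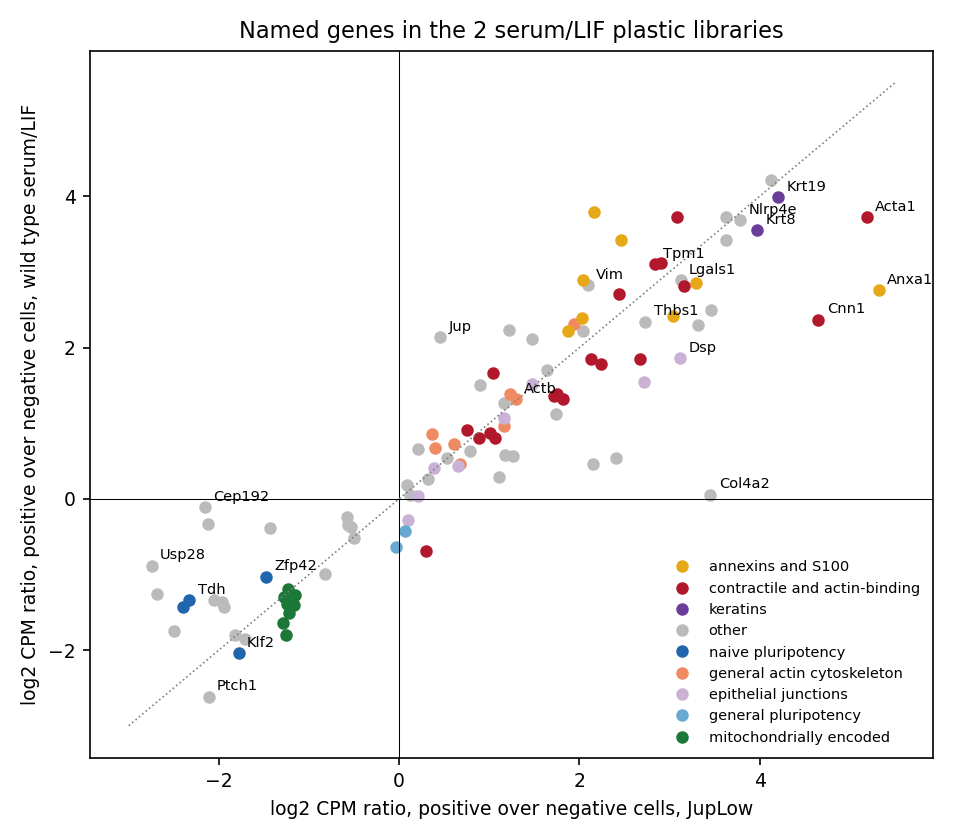
Log2 ratios of summed CPM, positive over negative cells, of the named genes in JupLow (x axis) and in wild type (y axis), 1 point per gene, coloured by list. The dotted line marks equal ratios. For Acta1 on the y axis and Krt19 on the x axis the negative class, at 0 UMIs, was set to 3 UMIs. Krt8 lies at 3.97 and 3.55, Tdh at −2.33 and −1.34, and Col4a2 at 3.45 and 0.06.

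**Figure D4:**
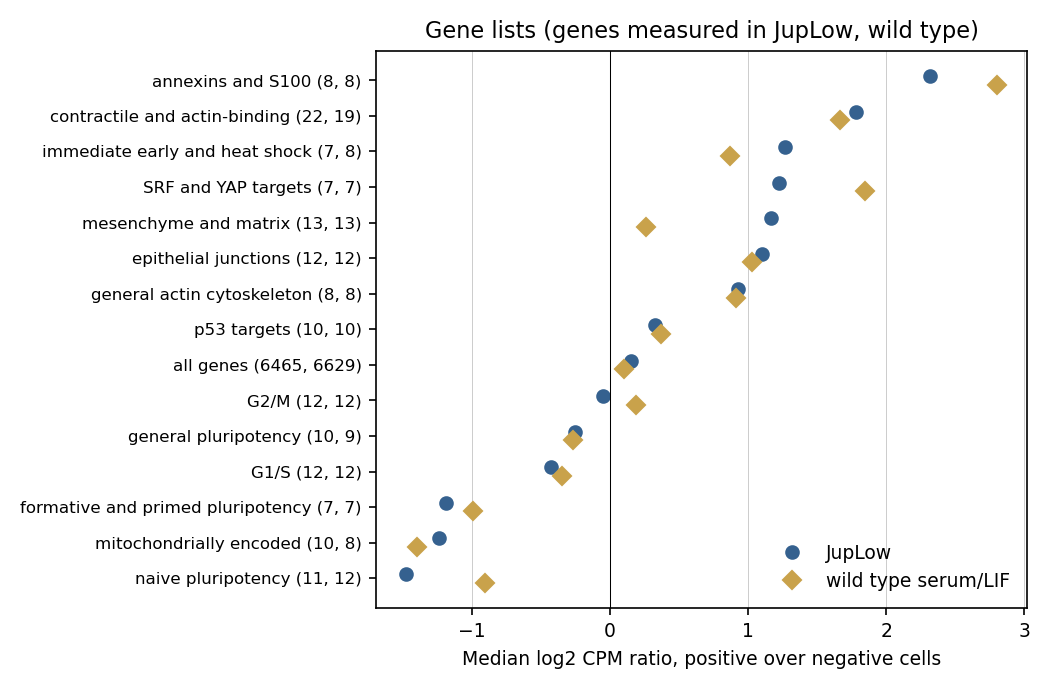
Median log2 ratio of summed CPM, positive over negative cells (x axis), of each gene list with 5 or more genes at 20 CPM in JupLow (y axis, with the number of genes measured in JupLow and wild type), for JupLow and wild type. Annexins and S100 stand at 2.32 and 2.80, contractile genes at 1.78 and 1.67 and naive pluripotency genes at −1.48 and −0.91.

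The 8 positive JupHigh cells had high levels of some of the same genes. Krt8 stood at 1500 CPM (interval 775 to 2620) in them against 6.15 in the 2114 negative cells, and had a UMI before thinning in 6 of the 8. Tpm1 stood at 875 against 64.8 CPM and Csrp1 at 1000 against 16.6, while Acta1, Cnn1, Myh9 and Flna had 0 thinned UMIs in these cells. Sox17, a transcription factor of endoderm, had 9 unthinned UMIs in 4 of the 8 cells and 1 UMI in the negative cells, whereas it had 0 in all 259 positive JupLow cells. Gata6, which directs primitive endoderm, had 7 UMIs in 4 of the 8 cells and 7 in the 2114 negative cells. Sparc stood at 5125 against 132 CPM and Col4a1 at 2500 against 7.57, with Sparc found in 5 cells and Col4a1 in 3. A single cell held 32 of the 75 unthinned Sparc UMIs, and a single cell 26 of the 44 of Col4a1. These JupHigh genes were chosen after their values were seen. Among the 5 positive gel cells Krt8 had 2 thinned UMIs and Tpm1 6 (1200 CPM against 212).

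Over whole libraries, Tpm1 stood at 661 CPM in JupLow, 589 in wild type, 305 in the gel, 71.9 in JupHigh and 41.4 in 2i/LIF. Krt8 stood at 544, 531, 148, 11.1 and 12.7 CPM in that order. The Krt8 intervals of JupHigh and 2i/LIF, 8.21 to 14.8 and 10.4 to 15.3 CPM, overlapped, while those of Tpm1, 64.1 to 80.4 and 37.1 to 46.0, did not. Tdh stood at 328, 238, 296, 1141 and 1087 CPM in that order, higher in JupHigh and 2i/LIF than in the other libraries.

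In the bulk libraries, gel and plastic cultures in 2i/LIF were compared with limma, the only replicated comparison of the series. The markers Tagln, Acta2 and Krt18 were not analysed here in bulk. Column names of the samples read as plastic include a mark for gel as well, so the direction of each bulk value rests on that reading. Of 7878 genes tested, 18.3% rose in gel and 18.6% fell (Benjamini-Hochberg adjusted p under 0.05), and of 78 named genes tested 32 rose and 18 fell. Of 15 tested contractile genes 7 rose and 3 fell. Actn1 stood at 37.2, 28.2 and 42.6 normalised counts in gel and 8.73, 6.65 and 4.55 on plastic, without overlap (log2 fold change 2.38 ± 0.32 SE, limma adjusted p = 2.4e-05). Tpm1 stood at 24.8, 18.4 and 30.2 in gel against 49.5, 40.3 and 31.9 on plastic (−0.72 ± 0.24, limma adjusted p = 0.024). That call was lost without gel replicate 2, without plastic replicate 1 or 2 and with DESeq2. Of 8 general actin genes 6 rose, among them Tmsb10 by 1.24 and Pfn1 by 0.88, and Vim rose by 0.87. Of the naive genes 7 of 15 rose and 3 fell, with Klf2 up by 2.08 (143, 120 and 81.1 in gel, 22.9, 26.6 and 28.8 on plastic) and Esrrb by 1.55, while Zfp42 fell by 0.32. Jup stood at 103, 90.9 and 96.2 in gel and 9.56, 9.39 and 30.4 on plastic (2.74 ± 0.31 SE, limma adjusted p = 5.9e-06). Krt8, at 2.46 to 11 in gel and 2.91 to 3.91 on plastic, was too low to test. In bulk libraries fewer cells of a type and less RNA per cell cannot be told apart.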

How the data were processed

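Per the labels' protocols, single cells were profiled with inDrop, and each deposited table holds raw UMI counts, one row for a barcode and one column for a gene. The bulk values are, as judged from the deposited tables, a signal: gene counts that the authors divided by 1 factor per library, since 100% of values were whole multiples of that factor within 0.01 reads (637235 to 2583256 recovered reads per library). Per the submitters' processing notes, FastQC, STAR, featureCounts, DESeq2, Scanpy, mm10 and GRCm38 were used; versions and strand setting are not given in the sources used here.

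Cells had 1000 or more UMIs and at most 0.9 detected genes per UMI; barcodes with 8 or more G at each end were left out (2 of 1202 JupLow barcodes in all). Doublets were not called. Without JupLow cells above 3 times the median UMIs (6 of the 259 positive ones), 302 genes were higher and 115 lower. In wild type, 14 of the 108 positive and 6 of the 429 negative cells lay above that limit. Without them 348 genes were higher and 126 lower there. Each cell was thinned once to 1000 UMIs with NumPy 2.4.6, classes were summed to CPM, and log2 ratios got exact intervals from SciPy 1.17.1 in Python 3.11.15. Genes without a name were left out. A class at 0 was set to 3 UMIs. A gene counted as different at 2-fold with 100 CPM in the higher class, and list medians used genes at 20 CPM over all cells. Cells are not replicates, so no p-value was computed from them. The planned edgeR test across the other single-cell libraries was not fitted, because only 1 library had 20 cells of each class.

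Bulk groups (3 against 3) went through limma 3.58.1 (R 4.3.3) with a trended variance, on log2(value + 0.5), a scale that understates changes of low genes, after edgeR's expression filter. The design named edgeR for counts; limma took its place because the unit is a signal, with the recovered reads as an alternative for edgeR 4.0.16 and for DESeq2 1.42.0. Nothing in the labels says the replicates were separate cultures, so p-values measure only the spread between these samples. Replicate numbers did not pair the bulk samples (correlations −0.052, 0.016 and 0.024). Both procedures were tested on simulated data.

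Named genes were the markers, the contractile, actin, keratin and junction genes at 100 CPM, the 12 highest and 12 lowest JupLow ratios, the 2 most abundant and any 2-fold gene of every other list, and Jup. Pou5f1, Sox2, Nanog and Cryab, outside that rule, were added after their values were seen. Members and lists were chosen with earlier results of these data known. Gene positions are from GENCODE M21. Some genes that the naming rule covers are not reported here.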

Additional observations from a re-analysis of the deposited data

Results flagged for a closer look

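Marker transcripts were found outside the cells analysed. In JupLow barcodes under 500 UMIs, Tagln stood at 869 CPM, Acta2 at 839 CPM and Krt18 at 529 CPM. In the same barcodes of wild type, Tagln stood at 223 CPM, Acta2 at 476 CPM and Krt18 at 374 CPM. JupHigh, with few positive cells, had 8.63, 6.90 and 15.5 CPM in its barcodes under 500 UMIs. Each of these 6 levels lay above the JupHigh interval for the same gene. The part of this RNA in the positive cells was not tested.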

How the results depend on the processing

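The share of positive JupLow cells was 13.3% with markers counted after thinning, 32.5% at 2 or more marker UMIs, 14.2% at 5 or more, 17.4% after thinning to 2000 UMIs and 29.8% in cells of at most 10% mitochondrial UMIs. For wild type the same settings gave 7.03%, 21.8%, 8.55%, 10.7% and 19.2%. The gel gave 0.893% after thinning and 0% at 5 or more. The cause of these moves was not tested beyond the construction of each setting.

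Genes higher and lower in JupLow numbered 199 and 54 at 2 or more marker UMIs, 165 and 217 with TMM factors, 659 and 259 at 50 CPM, 144 and 46 at 200 CPM and 733 and 247 at a fold of 1.5, with 230 lower in cells of at most 10% mitochondrial UMIs. In wild type they numbered 526 and 222 with markers counted after thinning, 509 and 217 at 5 or more marker UMIs, 219 and 80 for unthinned sums, 712 and 243 in cells of 1500 to 3000 UMIs (21 positive and 182 negative cells), 151 and 265 with TMM factors, 671 and 379 at 50 CPM, 126 and 42 at 200 CPM, 763 and 261 at a fold of 1.5 and 634 and 207 when chosen by Krt18 alone. There were also 79 lower genes at 2 or more marker UMIs, 192 lower when chosen by Tagln and Acta2 and 223 higher at most 10% mitochondrial UMIs. The 50 CPM split in wild type was 63.9% higher.

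With 1 or more choosing UMIs the held-out log2 ratios were 2.92 for Krt18, 2.65 for Tagln and 2.93 for Acta2 in JupLow and 3.10, 2.70 and 3.16 in wild type. In cells of 1500 to 3000 UMIs they were 4.49, 3.97 and 4.78 and 4.83, 4.19 and 4.47, and Tagln in JupLow had 3.04 at most 10% mitochondrial UMIs. All 24 held-out alternatives kept their sign, as did 195 of 200 for list medians, the other 5 being the median over all genes. Single genes kept their sign in 418 of 419 alternatives in JupLow (the exception Jup, −0.03 at most 10% mitochondrial UMIs) and 410 of 413 in wild type. There, in cells of 1500 to 3000 UMIs, Thbs1 had −0.34 and Gsn −0.21, and Nanog reached 0.13 in 1 setting. The cause was not tested. Some of the alternatives counted for list medians and single genes could not change a sign. The other CPM floors and the other fold enter only the counts of higher and lower genes. Dropping the limit on genes per UMI, or keeping barcodes with G runs, left the same cells in both libraries. The tallies for list medians and single genes therefore overstate how far the signs were tested.

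In bulk, 2906 genes were called, 2361 to 2833 with 1 library left out, 3156 with edgeR, 2189 with DESeq2 and 2988 with a replicate block, which the numbers do not support as a pairing. Lgals1, at 0.08 and not called, went from −0.046 without plastic replicate 3 to 0.22 without plastic replicate 2. The planned test across the other single-cell libraries, with its alternatives (DESeq2, no filter, no replicate block, each library left out, JupLow added, unthinned sums, 10 cells per class), was not run. Depth limits genes under 20 CPM: a class of 108 cells holds few of their UMIs.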

Other observations

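H19, an imprinted noncoding RNA of embryonic and extraembryonic tissue, stood at 359 CPM in positive and 73.3 in negative JupLow cells, a log2 ratio of 2.29 (1.74 to 2.87), and at 685 against 131 CPM in wild type (2.39, 1.87 to 2.92). In JupLow the level did not follow the marker count: it was 935 CPM at 5 to 9 marker UMIs and 174 at 20 or more. A single positive cell gave 31.2% of the UMIs of positive JupLow cells, and without it the level was 248 CPM. In wild type a single cell gave 33.8% of the UMIs of positive cells, and without it the level was 458 CPM. It stood there at 696 CPM at 3 to 4 marker UMIs, 400 at 5 to 9, 870 at 10 to 19 and 857 at 20 or more. H19 was chosen after its values were seen.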
